A study of Homo sapiens with 8 samples.

Results

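The 10 genes described here are regulators and markers of melanoma cell state: the melanocyte lineage factors MITF, SOX10, PAX3 and TFAP2A, the lineage receptors EDNRB and ERBB3, the neural crest receptor NGFR, and CDH2, CD44 and AXL, markers of invasive melanoma. They were chosen by name and looked up by symbol in a table of 4616 genes, in which 7 of them had a row. PAX3, TFAP2A and AXL had no row in the table used and were not analysed here. The cells were WM902B, an established human line labelled as primary melanoma with an activating BRAF mutation, at passage 18. They carried either the control hairpin shSCR or shTINCR, a hairpin against the long non-coding RNA TINCR, and all were treated with 100 µg/ml cycloheximide, which arrests elongating ribosomes, for 5 min. Ribosome footprints and RNA were each prepared from 2 biological replicates per hairpin, giving 8 libraries in 4 groups. The labels name 1 hairpin against TINCR, so effects of that hairpin and of the loss of TINCR cannot be told apart here. The RNA libraries are titled as total RNA and described as polyA RNA.

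Melanocytes arise from the neural crest, and SOX10 and PAX3 activate the gene of MITF, which in turn drives pigment, survival and proliferation genes. Melanoma cells are known to move between a melanocytic state with high MITF and SOX10, a neural crest-like state marked by NGFR, and an invasive state in which MITF is low and AXL, CD44 and N-cadherin (CDH2) are prominent. These states are usually described by mRNA or protein. Ribosome profiling adds the translational efficiency (TE), the density of ribosome footprints on an mRNA relative to the amount of that mRNA, and the comparison asks which mRNAs changed TE when TINCR was targeted.

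The table holds 1 comparison made by the authors, with a log2 TE for each hairpin, the log2 change of TE (shTINCR over shSCR) and a p-value for each gene. It has 0 columns of single libraries, so no spread between replicates, depth or interval can be given, and mRNA and footprints cannot be looked at apart. TINCR had 0 rows, so its silencing was not checked here. Of 14 melanocytic identity markers, 11 had a row in the authors' deposited table, among them MLANA, PMEL, TYR, DCT and S100B. Of the markers of other cell types, 1 of 14 keratinocyte genes (DSP), 1 of 12 fibroblast genes (COL1A2) and 2 of 12 endothelial and immune genes (KDR and CD68) had one, and none of these 4 passed the threshold used below. A row says only that a gene met the authors' criteria for inclusion (not given in the sources used here), and TE is not a measure of abundance.

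A gene was called at the authors' adjusted p below 0.05, which 757 of 4616 genes (16.4%) met, 380 upwards (8.23%) and 377 downwards (8.17%). Of the 7 measured regulators, NGFR rose, CDH2 and CD44 fell, and MITF, SOX10, EDNRB and ERBB3 did not pass. NGFR, the 1 neural crest receptor listed, moved in the opposite direction to the 2 measured invasive markers, and the 4 lineage genes gave no call. The wider list of invasive and dedifferentiated state genes, described below, went both ways, with 3 rises and 2 falls among 25 measured genes. In that list, NES of neural progenitors fell and the neural adhesion gene L1CAM rose. With 7 genes, 3 calls are a description and not a test of the group. The median log2 change was 0.12 over the 7 genes and 0.02 over all genes in the authors' deposited table, with ranges from -0.36 to 0.42 and from -1.14 to 1.28.

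**Figure D1:**
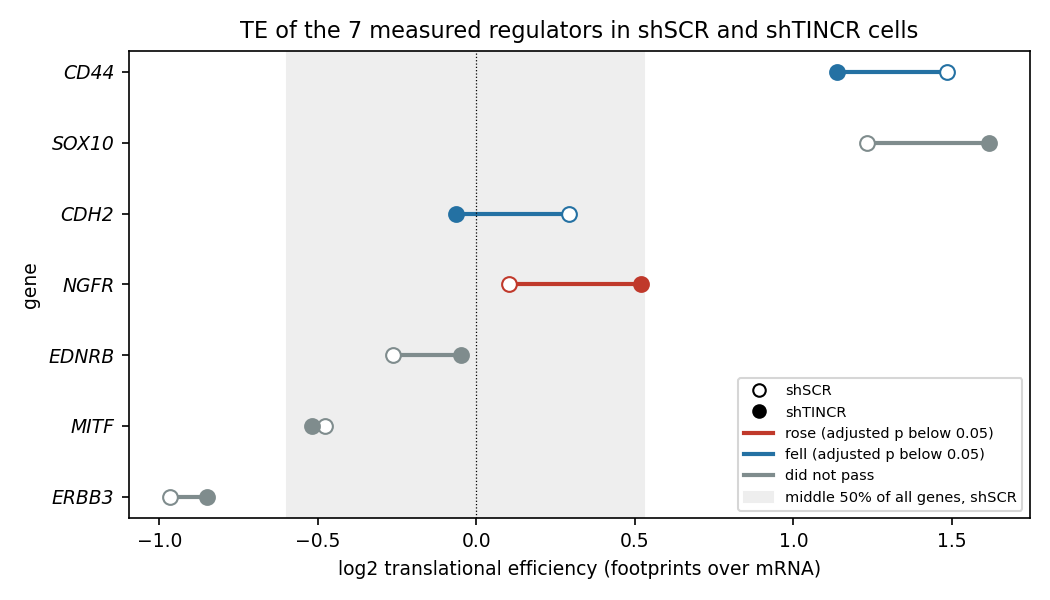
Log2 TE (x axis, footprints over mRNA) of the 7 measured regulators in shSCR (open circles) and shTINCR cells (filled circles), 1 gene per line, with the middle 50% of all genes in shSCR cells shaded. CD44 and SOX10 lie to the right of the shaded range in both conditions and exchange places, and ERBB3 lies to its left. The table gives no error for these levels.

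The lineage factors measured were MITF and SOX10. MITF, the master transcription factor of the melanocyte lineage, had a log2 TE of -0.48 in shSCR cells and -0.52 in shTINCR cells in the authors' deposited table. Its log2 change of -0.04 (0.972-fold, adjusted p = 0.80) exceeded that of 40.4% of all genes in the authors' deposited table. No gene with a change of similar size passed: of 1322 genes within 0.05 of MITF in absolute log2 change, 0 were called in the authors' deposited table. MITF has several promoters, and its value does not separate mRNAs with different first exons. SOX10, a transcription factor that neural crest cells and melanocytes require, had one of the high TE levels of the table, with a log2 TE of 1.23 in shSCR and 1.62 in shTINCR cells in the authors' deposited table. Its TE ranked above that of 94.3% of all genes in shSCR cells and of 96.7% in shTINCR cells. The log2 change of SOX10 was 0.39 (1.31-fold) with an adjusted p of 0.196 in the authors' deposited table, so it did not pass. In size it resembled NGFR, which passed: the log2 changes of SOX10 and NGFR differed by 0.03 in the authors' deposited table.

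SOX10 was also the regulator whose call depended on how the authors estimated the change. The table gives 2 versions of each log2 change and p-value, and in all 4616 rows the larger of both p-values was the final one. For SOX10 the log2 change was 0.39 in the first and 0.38 in the second version, whereas the p-value was 0.0633 in the first and 1.17e-06 in the second version of the authors' deposited table. After Benjamini-Hochberg adjustment over all genes, these p-values became 0.189 and 4.98e-05. By the ratio of the first to the second p-value, SOX10 ranked number 13 of 4616 genes in the authors' deposited table. The versions called 828 (17.9%) and 935 (20.3%) genes, 778 of them in common, and 157 genes, SOX10 among them, passed only in the second. Those 157 genes had a median log2 TE of 0.76 in shSCR cells, and 131 of them lay above the median TE of all genes in the authors' deposited table. The 50 genes that passed only in the first version had a median log2 TE of -1.08, and 1 of them lay above that median. Of the other measured regulators, NGFR, CDH2 and CD44 passed in both versions and MITF, EDNRB and ERBB3 passed in neither. Passing in both was fixed in advance for called genes, since the final p-value is the larger of both. In the second version 2 regulators rose and 2 fell, beside 11.0% and 9.23% of all genes. What distinguishes the versions was not given in the sources used here.

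**Figure D2:**
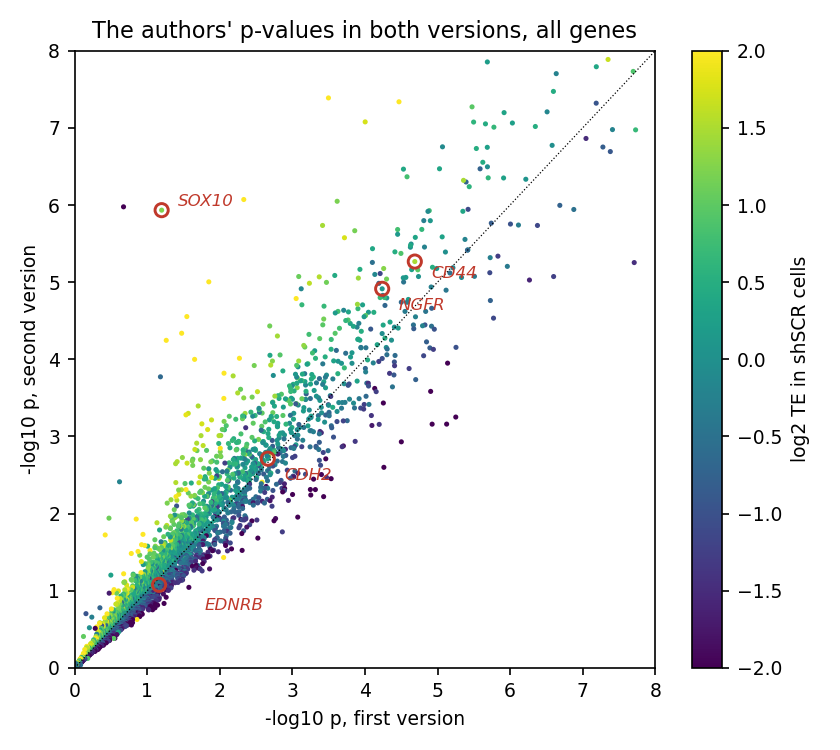
P-values of all genes in the first (x axis) and second (y axis) version of the authors' estimate, both as -log10, coloured by log2 TE in shSCR cells (genes beyond 8 on either axis are not drawn). SOX10 lies far above the diagonal at 0.0633 in the first and 1.17e-06 in the second version, while CD44, NGFR, CDH2 and EDNRB (circled) lie close to it.

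The gene of SOX10 overlaps that of POLR2F, a subunit of RNA polymerases, in the RefSeq annotation of GRCh38.p14. A counting rule by strand was not given in the sources used here. POLR2F had its own row, with a log2 TE of 0.29 in shSCR and 0.34 in shTINCR cells and a log2 change in the authors' deposited table of 0.06 (adjusted p = 0.813). Antisense genes also overlap EDNRB, NGFR, CDH2 and CD44 (EDNRB-AS1, NGFR-AS1, CDH2-AS1 and CD44-AS1), a small nucleolar RNA gene lies at CD44 (SNORD164) and a microRNA gene at NGFR (MIR6165). The pseudogene RN7SL418P overlaps MITF, and the pseudogene RN7SL810P overlaps EDNRB. Apart from POLR2F, no overlapping gene had a row, and the part of their reads in these values was not tested. None of the 7 regulators has a pseudogene named after it in that annotation.

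The lineage receptors EDNRB and ERBB3 both had positive changes that did not pass. EDNRB, the endothelin receptor that melanocyte precursors need for survival and migration, had a log2 TE of -0.26 in shSCR and -0.05 in shTINCR cells in the authors' deposited table. Its log2 change was 0.21 (1.16-fold, adjusted p = 0.234), just above the smallest absolute change called for any gene in the authors' deposited table, which also rounds to 0.21. Of 1040 genes within 0.05 of EDNRB in absolute log2 change, 30 (2.88%) passed. ERBB3, a neuregulin receptor that signals with ERBB2 and is a known SOX10 target, had the lowest TE of the 7 regulators, with a log2 TE of -0.97 in shSCR and -0.85 in shTINCR cells in the authors' deposited table. Its log2 change was 0.12 (1.08-fold, adjusted p = 0.489), and 0 of 1318 genes of similar size passed in the authors' deposited table. Changes as small as those of MITF and ERBB3 were thus called for no gene of this table, and a missing call does not show that their TE was the same in both conditions.

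NGFR, a low-affinity neurotrophin receptor of the TNF receptor family that marks neural crest-like melanoma cells, was the regulator whose TE rose. Its log2 TE was 0.10 in shSCR cells, close to the median gene, and 0.52 in shTINCR cells in the authors' deposited table. Its rank among all genes went from above 54.0% to above 73.2% of them. The log2 change was 0.42 (1.33-fold, adjusted p = 0.0015), larger than that of 94.4% of all genes in the authors' deposited table. In the 2 versions NGFR had adjusted p-values of 0.00132 and 0.000323. These are no further check of the call, since the final p-value is the larger of both.

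The measured invasive markers both fell. CD44, a surface receptor for hyaluronan, had the highest TE of the 7 regulators in shSCR cells, with a log2 TE of 1.48 that fell to 1.14 in shTINCR cells in the authors' deposited table. Its log2 change of -0.35 (0.787-fold, adjusted p = 0.000703) had the smallest p-value of the 7 in the authors' deposited table. CD44 stayed among the efficiently translated mRNAs, above 96.5% of all genes in shSCR and above 90.9% in shTINCR cells. CD44 is alternatively spliced, and the value does not separate its isoforms. CDH2, the adhesion molecule N-cadherin, had a log2 TE of 0.29 in shSCR and -0.07 in shTINCR cells in the authors' deposited table. Its log2 change of -0.36 (0.780-fold, adjusted p = 0.0205) was close in size to that of CD44 in the authors' deposited table, and its p-value was larger. The falls were similar in size: the log2 changes of CD44 and CDH2 differed by 0.01 and their log2 TE by 1.19 in shSCR and 1.20 in shTINCR cells in the authors' deposited table. These are bulk ratios, so a change in every cell and a larger change in some cells cannot be told apart.

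**Figure D3:**
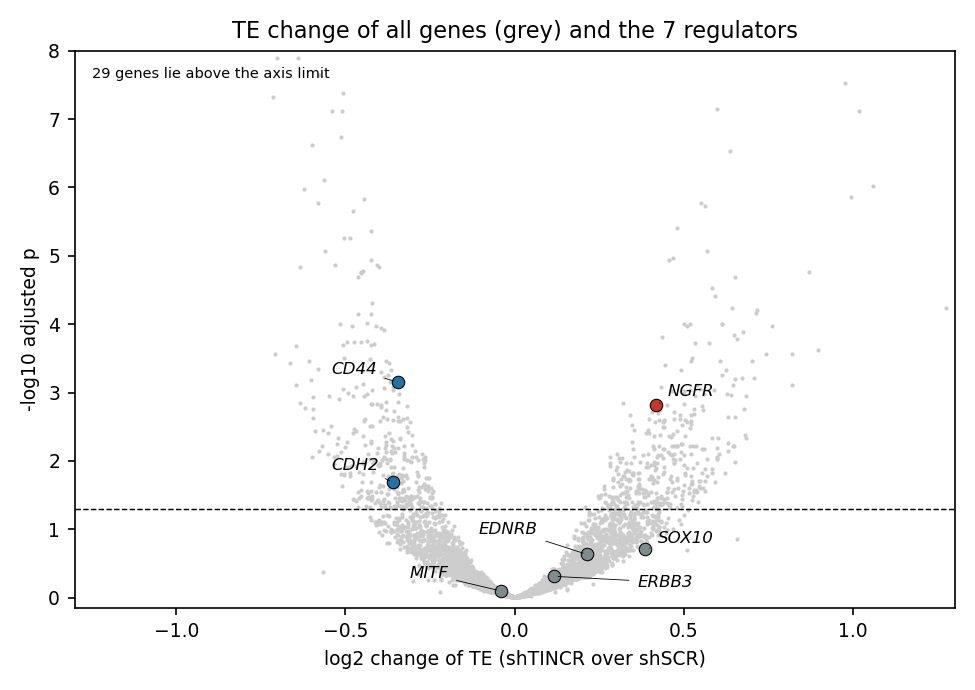
Log2 change of TE (x axis, shTINCR over shSCR) against -log10 of the authors' adjusted p (y axis) for all genes (grey) and the 7 measured regulators, with the threshold of 0.05 as a dashed line. NGFR lies above the line on the right, CD44 and CDH2 above it on the left, and SOX10, EDNRB, ERBB3 and MITF below it. SOX10 lies at the lower edge of the cloud, with a less significant p than most genes of its size of change.

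Set side by side, the changes altered the order of the regulators. From the highest to the lowest TE the order was CD44, SOX10, CDH2, NGFR, EDNRB, MITF and ERBB3 in shSCR cells, and SOX10, CD44, NGFR, EDNRB, CDH2, MITF and ERBB3 in shTINCR cells. The log2 TE of NGFR minus that of CDH2 was -0.19 in shSCR and 0.58 in shTINCR cells in the authors' deposited table. The log2 TE of NGFR minus that of CD44 went from -1.38 to -0.62. EDNRB and CDH2 were 0.02 apart in shTINCR cells, and without an error for each level it cannot be said which neighbours in these orders differ. Levels are compared here between genes as ratios of footprints to mRNA, and the counted part of each mRNA (not given in the sources used here) may differ between both kinds of library.

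The number of genes called among those of similar size gives a background for the call of each regulator, and does not measure its precision. Within 0.05 of their absolute log2 change, 243 of 339 genes (71.7%) passed near NGFR, 250 of 519 (48.2%) near CDH2 and 245 of 563 (43.5%) near CD44 in the authors' deposited table. Near SOX10, 252 of 440 genes (57.3%) passed, while SOX10 itself did not. The standard error implied by its log2 change and final p-value (0.208, if the p-value came from a normal statistic) was exceeded by 28 of 4616 genes. That of CD44 was 0.0812, which exceeded that of only 2.1% of all genes.

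Many mRNAs whose translation responds to growth signals begin with a C followed by an unbroken run of C and T (the TOP motif), and ribosomal protein mRNAs are the best known of them. To show what the mRNAs of the fallen invasive markers and of MITF begin with, the bases around their RefSeq transcript starts are given, with 10 bases before the start in lower case, the first 8 bases of the transcript in capitals and 12 more in lower case (GRCh38.p14, written 5′ to 3′ on the gene's strand).
CD44 (chr11:35139161-35139190, plus strand): ccgaggcagcCTCATTGCccagcggacccc
CDH2 start 1 (chr18:28177111-28177140, minus strand): actgcctggaGCCGTTTCtccgcgccgctg
CDH2 start 2 (chr18:28036622-28036651, minus strand): tccgtcagctCAAAAGAActttatccctgc
MITF start 1 (chr3:69739454-69739483, plus strand): gcgggcggccGCGAGCCGgcgagcgggcag
MITF start 2 (chr3:69763801-69763830, plus strand): cttgggaattCAGACCTAttccgctccatc
MITF start 3 (chr3:69936582-69936611, plus strand): taaagtttccGGTGGTGTctcgggatacct

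The motif was taken as a C at the first base followed by at least 4 more C or T without a gap, on the transcript strand. CD44 opens with C, T and C before an A, and its run ends after 3 bases. The RefSeq promoter table held 8 starts of 4 of the regulators (CD44, CDH2, EDNRB and MITF), and 0 of these 8 had the motif. Among the 3735 measured genes with an entry, the motif stood at 335 of 5409 starts (6.19%) and at any start of 329 genes (8.81%). Among starts of cytosolic ribosomal protein genes it stood at 41 of 75 (54.7%). The absence of these letters at an annotated start says nothing of where transcription starts in WM902B cells. No starts of SOX10, NGFR and ERBB3 were used here.

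Genes that work with the regulators were taken from 5 lists of related genes, 148 symbols in all, of which 65 had a row. Of these 65 genes, 5 rose and 2 fell (10.8%, against 16.4% of all genes), with a median log2 change of 0.06 against 0.02 over all genes in the authors' deposited table.

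Among 11 measured other factors of the lineage and neural crest (of 28 listed), 1 rose and 0 fell (9.09% called, beside 16.4% of all genes). A positive change was seen in 10 of these 11, against 2425 of 4616 (52.5%) over all genes. The list's median log2 change was 0.23 in the authors' deposited table. TBX2, a T-box repressor of senescence genes and a known MITF target, rose by 0.61 on the log2 scale (1.53-fold, adjusted p = 0.000549), from a log2 TE of -0.24 to 0.37 in the authors' deposited table. SNAI2, a neural crest factor of the Snail family and the one with a negative change, stood at -0.27 in the authors' deposited table (adjusted p = 0.288) and was named after its value was seen. Of 13 measured MITF targets outside pigment synthesis (of 19 listed), TBX2 alone passed (7.69%, beside 16.4% of all genes). The median log2 change of these targets was 0.02. Of 11 melanocytic identity markers, 0 passed at an adjusted p below 0.05 in the authors' deposited table, beside 16.4% of all genes. Their median was 0.07.

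Of 24 listed ligands, co-receptors and signalling partners of the receptors, 6 had a row and 0 passed, beside 16.4% of all genes. With lists this small, such shares were not tested. The smallest p-value among them belonged to GNA11, a G protein subunit through which endothelin receptors signal, which stood at 0.23 on the log2 scale in the authors' deposited table (adjusted p = 0.295). Among 11 measured partners of the cadherins and CD44 (of 23 listed), 1 rose and 0 fell, with a median of -0.08. The share called was 9.09%, beside 16.4% of all genes. The one that rose was NF2, which encodes merlin, a tumour suppressor known to bind CD44, with a log2 change of 0.41 (1.33-fold, adjusted p = 0.019) from a low log2 TE of -2.97 in the authors' deposited table. The other 10 did not pass, among them CTNNB1 and CTNNA1, catenins that link cadherins to the cytoskeleton. EZR, MSN and RDX of the ezrin family, which link CD44 to the cytoskeleton, were also among those 10. These catenins and ezrin family genes were named for their role, after their values were seen.

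Of 25 measured other genes of invasive and dedifferentiated states (of 55 symbols listed), 3 rose, 2 fell and 20 did not pass, a share of calls near the 16.4% of all genes, and the median log2 change was 0.04. The falls were those of intermediate filament genes. NES, which encodes nestin, a filament of neural progenitors, fell by 0.71 on the log2 scale (0.610-fold, adjusted p = 4.76e-08), from a log2 TE of 0.53 to -0.18 in the authors' deposited table. The authors' deposited table gave -0.65 for vimentin (VIM, adjusted p = 3.9e-14), a filament of mesenchymal cells. The rises were those of L1CAM, a neural adhesion molecule, by 0.50 (1.41-fold, adjusted p = 0.00149), SMAD3, a TGF-β signal transducer, by 0.47 (1.39-fold, adjusted p = 0.00806), and the integrin subunit ITGA3 by 0.35 (1.28-fold, adjusted p = 0.00891) in the authors' deposited table. All lists were chosen with earlier results of these data known, and VIM was among those results.

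**Figure D4:**
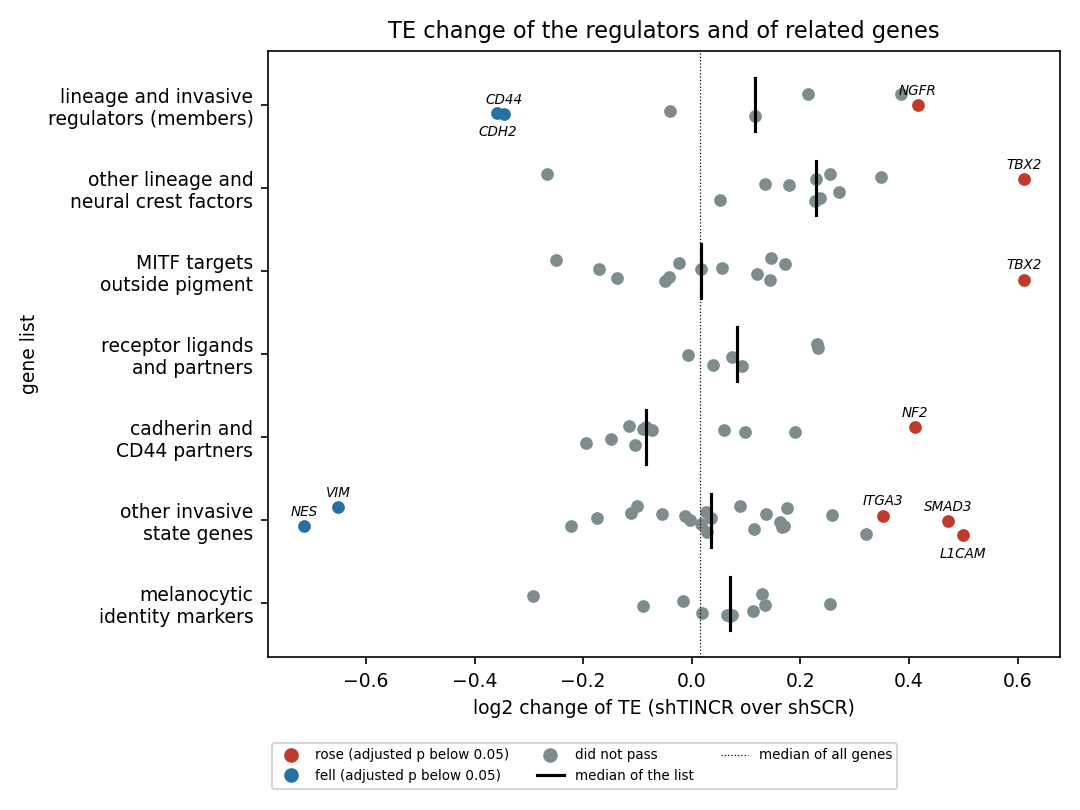
Log2 change of TE (x axis, shTINCR over shSCR) of the regulators and of 6 lists of related genes (y axis), with 1 point per measured gene, coloured by call, and a black bar at each list's median. In the list of other lineage and neural crest factors 10 of 11 points are positive with TBX2 the one called, and in the list of other invasive state genes 3 called points lie on the right, 2 on the left and 20 points are not called.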

How the data were processed

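Ribosome footprints and RNA of WM902B cells were compared between hairpins by the authors. Per the submitters' processing notes, build hg19 was used, with DESeq 1.10.1, HTSeq 0.5.3p9, TopHat2 2.0.8, Bowtie2 2.1.0, CASAVA 1.9 and SAMtools 0.1.18 named without roles. A tool for the TE comparison was not given in the sources used here. Per the file headers, the deposited log2 columns hold log2 TE by hairpin, and log2 changes of TE in 2 versions and as a final value. Per the file headers, the deposited p-values follow the same scheme, with an adjusted p added. From the values, the adjusted p was a Benjamini-Hochberg adjustment over 4616 genes.

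The members and lists were chosen with earlier results of these data known. The genes named are all members, and from each related list the genes past the threshold (up to 8), or the one with the smallest p. Outside this rule, cell type markers, SNAI2, POLR2F, catenins and the ezrin family were named after their values were seen. Folds are 2 to the power of the log2 change. Planned count tests were not run, since the table holds no counts. Of the symbols, 4465 were current in RefSeq (GRCh38.p14), 139 were older names and 12 had no single match. The adjustment was tested on simulated data. Alternatives were other thresholds, each version, centring, a filter on imprecise genes and Bonferroni. Scripts ran in Python 3.11.15 with scipy 1.17.1, numpy 2.4.6, matplotlib 3.10.9 and pandas 2.3.3.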

Additional observations from a re-analysis of the deposited data

How the results depend on the processing

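With the authors' second version, the measured regulators that rose numbered 2 (NGFR and SOX10) instead of 1, and 2 fell. Over all genes, 11.0% rose and 9.23% fell in that version. At an adjusted p below 0.01, 1 rose (NGFR) and 1 fell (CD44), since CDH2 had 0.0205. Over all 4616 genes, 167 rose and 194 fell at that threshold. After Bonferroni adjustment 0 regulators rose and 0 fell, with adjusted p-values of 0.0949 for CD44 and 0.267 for NGFR, and 45 genes rose and 75 fell over the table (at an unadjusted p below 0.05, 1363 genes passed). The other alternatives (an adjusted p below 0.1, the first version, centring on the median change, and keeping only the 3462 genes with the smallest implied standard error) kept the counts within 1.5 times. That last alternative removed SOX10, which has no value there. Over the 7 genes and all alternatives, 43 single values kept their direction and call, 4 lost the call, 1 gained it, and 0 changed direction. Many of these outcomes were fixed in advance. Other thresholds, Bonferroni and the filter used the same log2 change, centring used the same adjusted p, and neither version could lose a final call. The tally is thus a description and not a measure of robustness. No paired analysis was possible because the table holds no values of single libraries, and leaving out replicates was not possible for the same reason. Depth is unknown, so what it limits cannot be stated.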
